A study of Rattus norvegicus with 9 samples.

Results

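The cytosolic ribosomal protein genes encode the proteins that, with ribosomal RNA, make up the ribosomes of the cytoplasm. Members were taken by name alone: protein-coding rows of the count table whose symbol is Rpl, Rps or Rplp followed by a number, with an optional paralogue suffix, and 1 row per symbol, that with the most counts. This gave 86 genes out of 31125 rows, 36 of the small subunit and 50 of the large, among them the 3 genes of the stalk. Of these, 77 passed the filter on low counts, among 15936 genes tested. The other 9 (Rpl30, Rpl30l1, Rpl38, Rplp0l1, Rps12l2, Rps12l3, Rps12l4, Rps19l1 and Rps20) held between 0 and 87 counts over all libraries and were not tested.

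The small subunit reads the messenger RNA and the large subunit forms peptide bonds, while the stalk proteins recruit elongation factors to the large subunit. Cells make ribosomal proteins in nearly matched amounts, and their messenger RNAs begin with a tract of pyrimidines through which TOR signalling sets their translation. A few proteins have a paralogue with a narrower range of tissues, of which Rpl3l, restricted in the adult mostly to skeletal muscle and heart, is the best known.

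Bulk RNA was sequenced from intact femurs of male rats taken at day 7, with 3 libraries in each of 3 groups. Sham rats had sham surgery, GPI rats had an injury of the distal femoral growth plate, and GMTT rats had, according to the design text, the same injury followed by a hydrogel whose parts the series title names as GelMA, TPGS and tea polyphenols. The sample labels call the growth plate of the GMTT femurs intact, and this was not resolved. No genetic change is described for any group, and the sources used here do not give strain or age. The design text gives 3 specimens per group and does not say whether each came from its own animal, so the p-values reflect only how far these libraries spread.

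Libraries held between 15927429 and 19715997 counts. Skeletal muscle markers took 0.387% to 0.406% of the counts in Sham, 17.1% to 17.4% in GPI and 3.38% to 3.59% in GMTT, and all 24 markers found had counts in every group. Erythroid markers took 8.64% to 9.58%, 0.309% to 0.316% and 4.71% to 5.11%, and all 18 found had at least some counts in every group. In GPI against Sham 16 of the 18 fell and 2 rose on the TMM scale, with a median log2 fold change of -8.89 (0 rose and 18 fell with library sizes alone). Markers of neutrophils and their precursors took 1.39% to 1.49%, 0.000867% to 0.00104% and 1.68% to 1.76%. Genes encoded in mitochondria took 3.65% to 4.02%, 25.4% to 26.9% and 5.73% to 6.41%. Of 13 genes that mark the femur, all had counts, and 9 fell and 4 rose in GPI against Sham on the TMM scale (1 rose and 12 fell with library sizes alone). Among all 15936 genes tested, 48.1% fell and 40.1% rose on the TMM scale, and 11210 fell and 3521 rose with library sizes alone. Sost, an osteocyte gene, was at 26.8, 0.390 and 20.3 normalised CPM (counts scaled to library size with TMM factors) in Sham, GPI and GMTT, the marker that fell most, and Col10a1, a gene of hypertrophic chondrocytes, at 1.76, 14.5 and 1.33, the marker that rose most. These differences in tissue make-up accompany each result below, and their part in the results was not tested. In bulk tissue, fewer cells of a type and less RNA per cell cannot be told apart.

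The start of transcription is shown first for the members on which the results turn and for pairs of paralogues, because the pyrimidine tract there is the feature that ribosomal protein genes are known to share. Sequences come from RefSeq on GRCr8, which held 64 of the 86 members. Each line runs from 30 bases before the annotated start to 15 bases from the start on, and capitals mark the longest run of C and T that touches the start or lies within 5 bases of it. Rplp0 (chr12:46718376-46718420, minus strand), Rpl10 (chrX:157205820-157205864, plus), Rpl22 (chr5:168117931-168117975, plus) and Rps27 (chr2:177964592-177964636, minus) had runs of 8 to 15 bases. Their paralogues Rpl22l1 (chr2:113683166-113683210, plus) and Rps27l (chr8:76443628-76443672, plus) had runs of 4 and 3.
Rplp0: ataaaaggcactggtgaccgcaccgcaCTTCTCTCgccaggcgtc
Rpl10: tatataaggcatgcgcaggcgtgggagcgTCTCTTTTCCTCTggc
Rpl22: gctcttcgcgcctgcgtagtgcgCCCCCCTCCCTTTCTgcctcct
Rpl22l1: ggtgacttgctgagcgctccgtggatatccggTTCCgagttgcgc
Rps27: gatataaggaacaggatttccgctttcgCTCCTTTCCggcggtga
Rps27l: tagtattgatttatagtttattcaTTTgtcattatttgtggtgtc

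Rpl3 (chr7:113507976-113508020, minus) began with a run of 5 pyrimidines at the annotated start itself. Rpl3l (chr10:14258416-14258460, plus) and Rps12 (chr1:23500045-23500089, plus) had no run longer than 3 bases near theirs.
Rpl3: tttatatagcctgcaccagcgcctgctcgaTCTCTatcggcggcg
Rpl3l: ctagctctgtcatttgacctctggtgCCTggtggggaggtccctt
Rps12: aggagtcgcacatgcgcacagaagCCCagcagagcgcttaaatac

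A run of at least 8 pyrimidines at or within 5 bases of the start was present in 58.5% of the 65 member promoters (Rps27a has 2) and in 9.06% of all 33469 promoters in the table. Among tested members, the 36 with such a run had a median log2 fold change of -0.66 in GPI against Sham, and the 24 with a shorter run had -0.71. Over the whole 300 bases, searched on both strands, the letters CTTCCG, the core bound by ETS factors, stood in 50.8% of member promoters and 16.6% of all. CTTTCC stood in 44.6% and 26.4%, and TATAAA in 13.8% and 14.2%. The E box, CANNTG, which muscle regulators of the MyoD family bind, stood in 53.8% of member promoters and 72.1% of all, and the MEF2-type site stood in 0 of 65 and in 3.84% of all. No motif searched contains another. A match is a description of the letters and not evidence of binding.

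The 250 bases before the start are printed for Rpl3 (chr7:113507991-113508240, minus) and Rpl3l (chr10:14258196-14258445, plus), the pair that parted most between GPI and the other groups. Capitals mark every CANNTG. Rpl3 had 0 such sites and Rpl3l had 4.
Rpl3: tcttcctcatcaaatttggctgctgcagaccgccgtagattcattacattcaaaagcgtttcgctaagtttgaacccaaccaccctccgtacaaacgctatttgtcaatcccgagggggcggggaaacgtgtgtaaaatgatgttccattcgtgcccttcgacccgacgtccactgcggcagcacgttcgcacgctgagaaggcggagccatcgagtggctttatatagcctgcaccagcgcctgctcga
Rpl3l: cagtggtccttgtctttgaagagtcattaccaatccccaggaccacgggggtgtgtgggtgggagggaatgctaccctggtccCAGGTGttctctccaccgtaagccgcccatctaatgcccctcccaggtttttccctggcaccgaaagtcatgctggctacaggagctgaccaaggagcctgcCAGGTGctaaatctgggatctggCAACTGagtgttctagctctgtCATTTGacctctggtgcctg

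The members together held a far smaller share of the counts in GPI than in the other groups. They took 2.96%, 3.08% and 3.24% of the counts in the Sham libraries, 0.861%, 0.934% and 0.890% in GPI, and 2.76%, 2.66% and 2.63% in GMTT. No 2 groups overlapped. The means were 3.09% ± 0.137 in Sham, 0.895% ± 0.0363 in GPI and 2.68% ± 0.0670 in GMTT (SD, n = 3), so that the share was 3.46 times as high in Sham as in GPI and 3.00 times as high in GMTT as in GPI. GMTT stood at 0.867 of the Sham share. An exact 2-sided permutation test gave p = 0.1 for each of the 3 comparisons, the smallest value that 3 libraries against 3 allow. Leaving the muscle, erythroid and neutrophil markers and the genes encoded in mitochondria out of the total raised the GPI share to 1.59%, against 3.63% in Sham and 3.20% in GMTT.

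**Figure D1:**
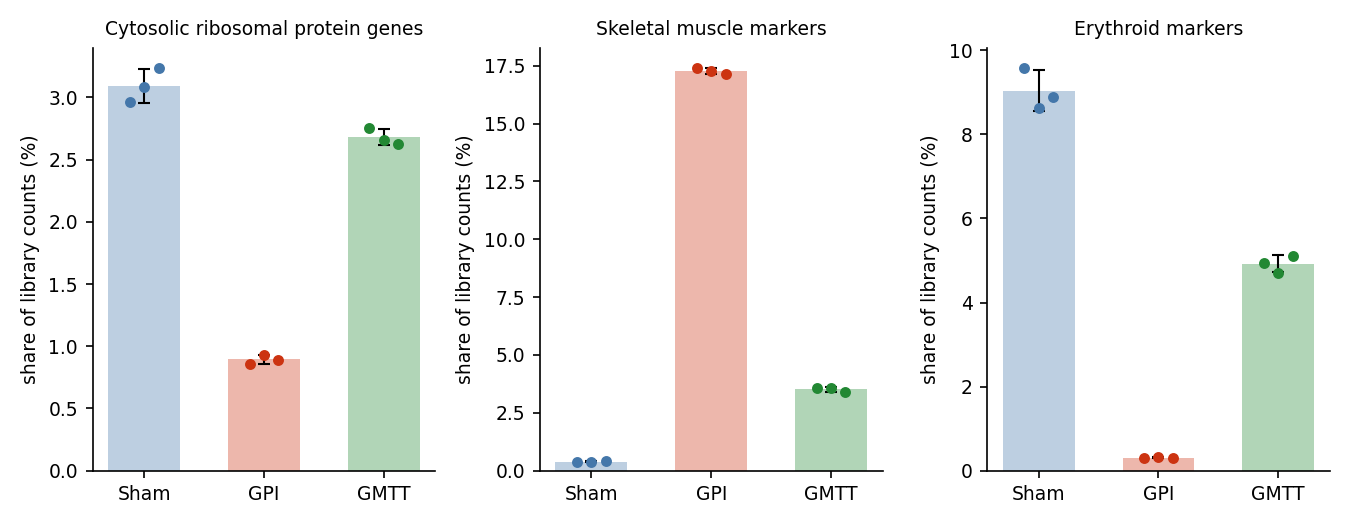
Share of library counts (%) held by the 86 cytosolic ribosomal protein genes, by skeletal muscle markers and by erythroid markers. Points are libraries, bars are means of 3 and error bars are SD; the ribosomal protein share stands between 0.861% and 0.934% in GPI, where muscle markers reach 17.1% to 17.4%.

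GPI against Sham shows what differed after the injury alone, at day 7. On the TMM scale, which compares libraries through the bulk of their genes, 69 of the 77 tested members fell, 1 rose and 7 were not called by edgeR's quasi-likelihood test (adjusted p under 0.05, by Benjamini and Hochberg). Among all 15936 genes, 48.1% were called lower and 40.1% higher. The median member changed by -0.64 (log2), against -0.19 for all genes. In 65 members every GPI library was below every Sham library, a pattern found in 48.2% of all genes. With library sizes alone and no scaling factor, 76 members fell, as did 11210 of the 15936 genes. The medians on that scale were -1.73 for members and -1.28 for all genes. The 7 not called were Rpl9, Rpl10l, Rpl21, Rpl37l1, Rpl39, Rpl39l and Rps29, and the member that rose was Rpl3l.

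The small subunit genes fell further than those of the large subunit as counted by their medians. Of 31 small subunit genes tested, 30 fell, with a median of -0.86, and of 46 large subunit genes, 39 fell and 1 rose, with a median of -0.51. Leaving out Rpl3 and the named paralogues, the 29 small subunit genes held 44.1%, 43.8% and 43.9% of the counts of both subunits in Sham, 40.9%, 41.0% and 40.7% in GPI, and 43.6%, 44.1% and 44.2% in GMTT. Every GPI library was below every other library, while Sham and GMTT overlapped. The difference of GPI from Sham was -3.05 percentage points and that of GMTT from Sham 0.0466 (exact permutation p = 0.1 and 0.8, n = 3).

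**Figure D2:**
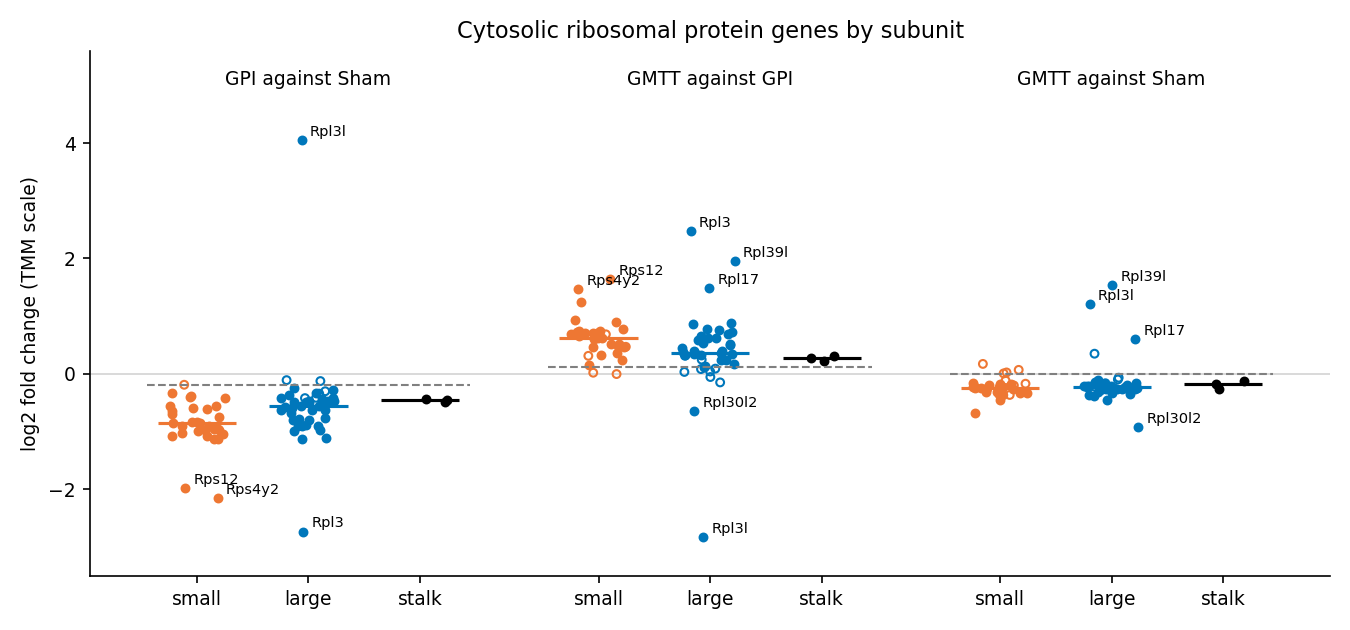
Log2 fold change (TMM scale) of each tested member in the 3 comparisons, split into the small subunit, the large subunit without the stalk, and the stalk. Filled points passed the test, open points did not, solid bars are medians of the points shown and dashed grey lines the median of all genes tested; most members lie below 0 in GPI against Sham and above 0 in GMTT against GPI, with Rpl3l opposite.

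Rps3a and Rps15, both of the small subunit, and Rplp0 and Rpl19, of the large, had the highest FPKM in Sham. FPKM is here counts per annotated gene length over a median-of-ratios size factor, so this ranking depends on that length. In normalised CPM, Rps15 and Rpl19 had Sham means of 344 and 531, below the 906 of Rpl3. Rps3a was at 922, 928 and 916 normalised CPM in Sham, 517, 515 and 504 in GPI and 739, 708 and 762 in GMTT. GPI was lowest and Sham highest, with no overlap, and the log2 fold changes were -0.85 (SE 0.04) for GPI against Sham and 0.52 (SE 0.04) for GMTT against GPI. Rps15 and Rpl19 fell by 0.84 and 0.82 on the log2 scale in GPI. Rps6, the substrate of S6 kinase, was at 905, 989 and 945 normalised CPM in Sham, 461, 491 and 487 in GPI and 776, 754 and 810 in GMTT. Its change in GPI was -0.98 (SE 0.05, adjusted p = 1.79e-19, edgeR's quasi-likelihood test). Rps3, which lies at the messenger RNA entry of the small subunit, fell by 1.13 in GPI and rose by 0.94 in GMTT against GPI.

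The 3 stalk genes moved less than the median member in GPI against Sham and in GMTT against GPI. Rplp0, often used as a reference gene in PCR, was at 1095, 1085 and 1207 normalised CPM in Sham, 815, 893 and 806 in GPI and 1084, 1042 and 993 in GMTT. The GPI libraries lay below all others, while Sham and GMTT came close to each other. Its change was -0.43 in GPI against Sham (SE 0.05, adjusted p = 1.15e-09) and 0.31 in GMTT against GPI (SE 0.05, adjusted p = 6.97e-07, edgeR's quasi-likelihood test). Its difference between GMTT and Sham, -0.12, passed the test (adjusted p = 0.0347, edgeR's quasi-likelihood test) but not with median-of-ratios scaling (0.141), nor without Sham replicate 3 (0.238), GMTT replicate 2 (0.0726) or GMTT replicate 3 (0.13). Rplp1 and Rplp2, the acidic proteins that bind Rplp0 in pairs, changed by -0.48 and -0.45 in GPI.

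Of the 18 members whose human counterparts are mutated in Diamond-Blackfan anaemia, a failure of red cell production, 17 fell in GPI, with a median of -0.66, near the 69 of 77 and -0.64 of all members (48.1% of all genes fell). Rps19, the gene most often affected, was at 273, 286 and 322 normalised CPM in Sham, 135, 162 and 137 in GPI and 234, 242 and 225 in GMTT. It changed by -1.02 (SE 0.06) in GPI. Rpl5 and Rpl11, which with 5S ribosomal RNA bind the p53 inhibitor MDM2, changed by -0.68 and -0.60. Both stood near the median of the family. Erythroid markers took 0.309% to 0.316% of the counts in the same GPI libraries.

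Some members with well over 100 normalised CPM changed little in GPI. Rpl23 fell by 0.25, Rpl37 by 0.34 and Rps25, needed for initiation at some internal entry sites, by 0.38. Rps29 was at 207, 267 and 291 normalised CPM in Sham, 205, 227 and 239.5 in GPI and 228, 233 and 219 in GMTT. The groups overlapped, and the value of -0.19 was not called (adjusted p = 0.179, edgeR's quasi-likelihood test). Without Sham replicate 1, the lowest Sham library, the Rps29 value was -0.33 and was called (adjusted p = 1.22e-05).

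Rpl3 and Rpl3l parted most between GPI and the other groups. Both proteins take the same place beside the peptidyl transferase centre of the large subunit. Rpl3 (ENSRNOG00000016896, mRatBN7.2 chromosome 7, 111621610 to 111636468) was at 899, 896 and 922 normalised CPM in Sham, 132, 143 and 133 in GPI and 747, 773 and 751 in GMTT. Rpl3l (ENSRNOG00000014641, chromosome 10, 13753886 to 13764457) was at 28.5, 29.6 and 31.9 in Sham, 489.8, 514 and 484 in GPI and 72.4, 68.6 and 68.2 in GMTT. Rpl3 was lowest and Rpl3l highest in GPI, and no 2 groups overlapped for either gene. In GPI against Sham, Rpl3 changed by -2.74 (SE 0.05, adjusted p = 1.51e-31) and Rpl3l by 4.05 (SE 0.06, adjusted p = 5.01e-34, edgeR's quasi-likelihood test). In GMTT against GPI the changes were 2.48 (SE 0.05) and -2.83 (SE 0.05), and in GMTT against Sham -0.26 (SE 0.04) and 1.21 (SE 0.06).

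Per length, Rpl3l made up 4.19% ± 0.178 of the summed FPKM of the pair in Sham, 82.8% ± 0.234 in GPI and 10.8% ± 0.442 in GMTT (SD, n = 3). On the deposited FPKM scale, which follows size factors and not library depth, the sum was 408 ± 6.03 in Sham, 348 ± 10.6 in GPI and 374 ± 5.56 in GMTT, or 1.17 times as high in Sham as in GPI. Per length and library depth the sum was 2.55 times as high in Sham as in GPI, so how far it differed depends on the scaling. Within a library, the log2 ratio of Rpl3l to Rpl3 differed by 6.78 between GPI and Sham, by -5.31 between GMTT and GPI and by 1.47 between GMTT and Sham. Each difference had an exact 2-sided permutation p of 0.1 (n = 3), the smallest possible, which became 0.2625 when adjusted over the 21 paralogue comparisons. This ratio does not depend on how libraries are scaled. The skeletal muscle markers, all 24 tested, rose by 4.76 to 7.98 (log2) in GPI against Sham and by 1.96 to 3.92 in GMTT against Sham, so Rpl3l rose by less than each of them in both. The part of muscle tissue in the Rpl3l result was not tested.

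**Figure D3:**
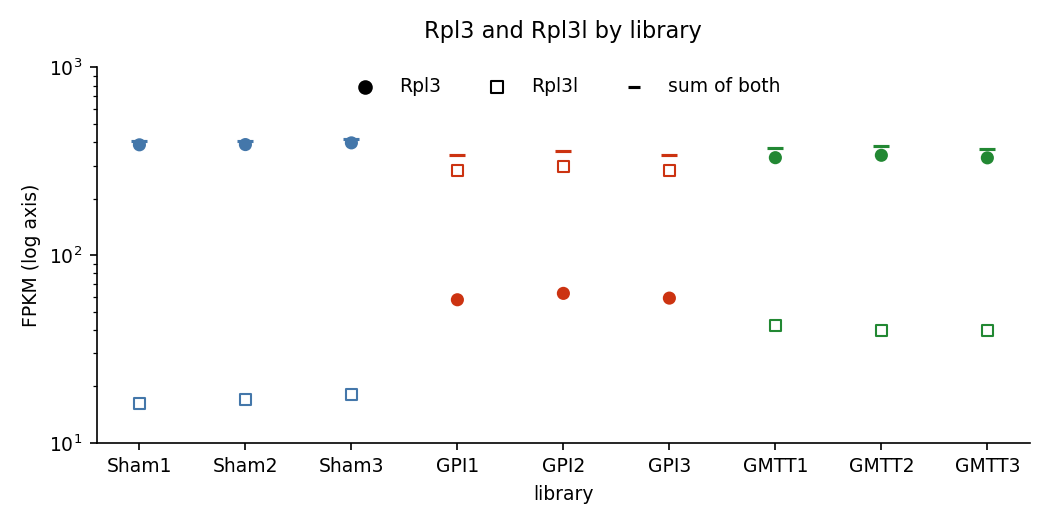
FPKM of Rpl3 (filled circles), Rpl3l (open squares) and their sum (dashes) in each library, on a log axis. Rpl3l lies below Rpl3 in Sham and GMTT and above it in GPI, and the sums run from 342 to 414 on this scale.

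Between GPI and each of the other groups, no other pair differed as much in its log2 ratio. Rpl22, which is required in early lymphocyte development, and Rpl22l1 changed by -0.50 and -0.47 in GPI. Rpl22l1 made up 52.8% ± 2.12, 53.4% ± 1.46 and 51.2% ± 1.22 of their FPKM in Sham, GPI and GMTT. These shares depend on annotated lengths of 3712 bases for Rpl22 and 1486 for Rpl22l1. In normalised CPM, Rpl22 had the higher Sham mean, 112 against 50.3. Rpl36al, whose product is nearly the same as that of Rpl36a, held 14.4% ± 0.140, 13.7% ± 2.43 and 13.9% ± 0.443 of its pair. Neither of these log2 ratios differed beyond the spread of the libraries in any comparison (exact permutation p of 0.2 to 0.8, n = 3). Rps27 and Rps27l, the latter a p53 target, changed by -0.83 and -0.33, and Rps27l held 16.8% ± 2.33, 22.6% ± 5.85 and 16.8% ± 0.887 of the pair. Its log2 ratio to Rps27 differed by -0.51 between GMTT and GPI, with no overlap (exact permutation p = 0.1, n = 3), and overlapped in the other 2 comparisons. GPI replicate 1 stood apart at -1.27, while GPI replicates 2 and 3 were at -2.02 and -2.11 and GMTT ran from -2.37 to -2.20. Rpl7l1, a relative of Rpl7 that works in assembly of the large subunit, fell by 1.13 in GPI and rose by 0.89 in GMTT against GPI.

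The other 3 paralogues had low levels. Rps4y2, a copy of Rps4x, was at 3.96, 5.41 and 6.34 normalised CPM in Sham, 1.44, 1.09 and 0.963 in GPI and 3.63, 3.82 and 2.32 in GMTT. It fell by 2.16 (SE 0.25) in GPI, while Rps4x fell by 0.62 (SE 0.04). Its log2 ratio to Rps4x differed by -1.50 in GPI against Sham and by 1.06 in GMTT against GPI, with no overlap in either. Rpl39l, the paralogue of Rpl39 known from the testis, had 8, 2 and 8 counts in Sham, 2, 3 and 2 in GPI and 25, 17 and 14 in GMTT. It was higher in GMTT than in Sham by 1.53 (SE 0.41, adjusted p = 0.00174) and than in GPI by 1.95 (SE 0.53, adjusted p = 0.00127, edgeR's quasi-likelihood test). In GMTT against Sham its log2 ratio to Rpl39 differed by 1.67, more than the 1.47 of Rpl3l to Rpl3, but on these few counts. The Rpl39 row held only 3.21% of the counts of all rows described as L39, so this ratio leaves out most L39 counts. In GMTT against GPI that ratio differed by 1.44. The groups did not overlap in either (exact permutation p = 0.1 for each, n = 3). Rpl10l, a retrogene copy of Rpl10 also known from the testis, was at 0.963 to 2.46 normalised CPM over all libraries. Its difference of 0.77 in GMTT against GPI passed the test, and Rpl10 rose by 0.52 in the same comparison. The log2 ratio of Rpl10l to Rpl10 overlapped between the groups in every comparison.

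Rps12 fell further than any other well-expressed member except Rpl3. Rps12, a protein of the head of the small subunit, was at 235, 238 and 272 normalised CPM in Sham, 69.8, 68.0 and 49.4 in GPI and 206, 202 and 177 in GMTT. GPI was lowest with no overlap. The change was -1.99 (SE 0.13, adjusted p = 9.21e-07) in GPI against Sham and 1.64 (SE 0.13, adjusted p = 3.84e-06, edgeR's quasi-likelihood test) in GMTT against GPI. Its copies LOC100361933 and LOC100360573 took part of the reads, and with all rows of the S12 protein summed the changes were -1.67 (SE 0.07) and 1.31 (SE 0.07).

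Scaling each library to the summed counts of the family shows which members left the common course. On that scale the members divide around 0 by construction, and in GPI against Sham 27 were called higher and 25 lower than the family, where 55.4% and 31.3% of all genes were so called. Rpl3 stood at -2.04, Rps4y2 at -1.46, Rps12 at -1.29 and Rps10l1 at -0.44 relative to the family. At the other end were Rpl3l at 4.74, Rpl37l1 at 0.58, Rpl9 at 0.57 and Rps29 at 0.51. In GMTT against GPI, 25 members were called higher and 26 lower than the family, against 33.1% and 52.3% of all genes. In GMTT against Sham, 6 members were higher and 6 lower than the family, against 46% and 11.7% of all genes.

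**Figure D4:**
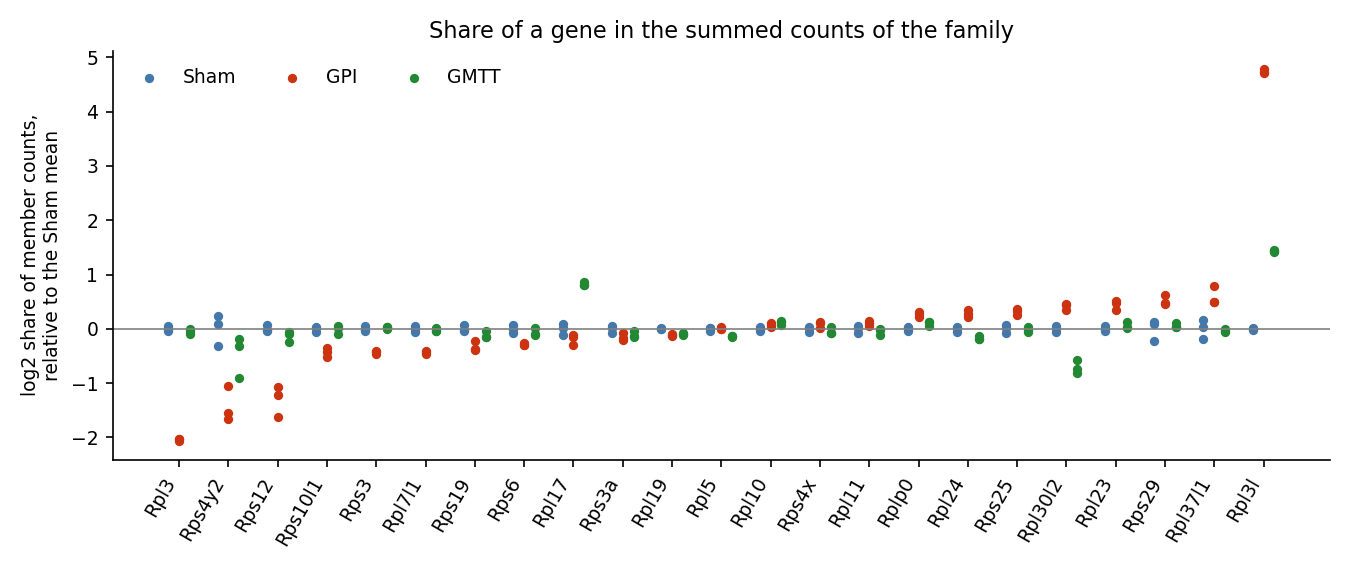
Log2 share of selected members in the summed counts of the family, relative to the Sham mean, 1 point per library. Genes are ordered roughly by their value in GPI. Rpl3, Rps4y2 and Rps12 are low in GPI, and Rpl3l is high in GPI and, to a lesser degree, in GMTT. Rpl17 and Rpl30l2 also leave the other members in GMTT.

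GMTT against GPI sets femurs labelled as treated with the hydrogel against injured femurs without it. Of the 77 tested members 60 were higher in GMTT, 2 were lower and 15 were not called, where 45.7% of all genes were called higher and 40.2% lower (edgeR's quasi-likelihood test). The median member changed by 0.47 (log2), against 0.12 for all genes. Of the small subunit genes 26 of 31 rose, with a median of 0.62, and of the large subunit genes 34 of 46, with a median of 0.34. In 62 members the GMTT libraries were all above the GPI libraries, against 46% of all genes. The highest values were those of Rpl3, Rpl39l, Rps12, Rpl17 and Rps4y2, whose change was 1.47. Rpl3l and Rpl30l2 were the 2 that fell, and with library sizes alone Rpl30l2 stood at 0.46 instead. This comparison shares its GPI libraries with GPI against Sham, so the 2 sets of values are not independent.

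GMTT against Sham asks how far the treated femurs stood from those of sham surgery. Of the 77 members 56 were lower in GMTT, 3 were higher and 18 were not called, where 28.3% of all genes were called lower and 29.5% higher (edgeR's quasi-likelihood test). The median was -0.23 (log2), against -0.00 for all genes, so that the differences were many and small. The quartiles of the members lay at -0.27 and -0.18. Small and large subunit genes had similar medians, at -0.24 and -0.23. In 57 members the groups did not overlap with GMTT lower, against 30.4% of all genes. Rps3a, Rpl24 and Rps10 changed by -0.32, -0.38 and -0.45, and Rps4y2 by -0.69. The Rps10 row held 4910 of the 32682 counts of all rows described as S10, whose sum changed by -0.25. Testing against a 2-fold minimum left 0 members lower and 1 higher.

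The 3 members higher in GMTT than in Sham were Rpl3l, Rpl39l and Rpl17, and for Rpl17 another row of the same protein went the other way. Rpl17 (ENSRNOG00000018680, mRatBN7.2 chromosome 18, 68581098 to 68584253), a protein at the exit of the peptide tunnel, was at 164, 194 and 197 normalised CPM in Sham, 89.4, 109.7 and 102 in GPI and 285, 285 and 276 in GMTT. The protein-coding row RGD1359290, which the deposited descriptions assign to the same protein, was at 284, 298 and 314 in Sham, 169, 177 and 165 in GPI and 127, 121 and 124 in GMTT. Rpl17 was thus highest and the copy lowest in GMTT, and whether reads were assigned differently between these rows was not tested. In GMTT against Sham they changed by 0.61 (SE 0.06, adjusted p = 1.34e-08) and -1.27 (SE 0.05, adjusted p = 1.45e-20). The sum of all rows of the protein changed by -0.26 (SE 0.05, adjusted p = 3.58e-05, edgeR's quasi-likelihood test), close to the median member.

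Rpl30l2 went the other way. It was at 159, 161 and 162.5 normalised CPM in Sham, 129.9, 132 and 136 in GPI and 84.6, 78.3 and 91.8 in GMTT, with GMTT lowest and no overlap. Its changes were -0.28 in GPI against Sham, -0.64 in GMTT against GPI and -0.92 in GMTT against Sham (SE 0.05 each). A row with the symbol Rpl30, listed as a long non-coding RNA and so outside the rule, was at 50.5, 58.6 and 64.8 in Sham, 38.2, 38.6 and 42.7 in GPI and 100.4, 105 and 101 in GMTT. The sum of all rows described as L30 changed by -0.35, 0.12 and -0.23 in the 3 comparisons. Another such pair, Rps27a and Rps27a-ps1, varied in opposite directions within groups. Rps27a was at 244, 135 and 274 normalised CPM in Sham where Rps27a-ps1 was at 131, 255 and 98.9. Their sum was at 376, 391 and 374, and changed by -0.64 (SE 0.05) in GPI, whereas Rps27a alone changed by -1.08 with an SE of 0.33. The Rps27a call (adjusted p = 0.0189, edgeR's quasi-likelihood test) was lost without Sham replicate 1 or 3 (adjusted p of 0.0524 and 0.0562) and without GPI replicate 1 or 2 (0.0648 each). How the counting program treated reads that match several copies is not stated.

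**Figure D5:**
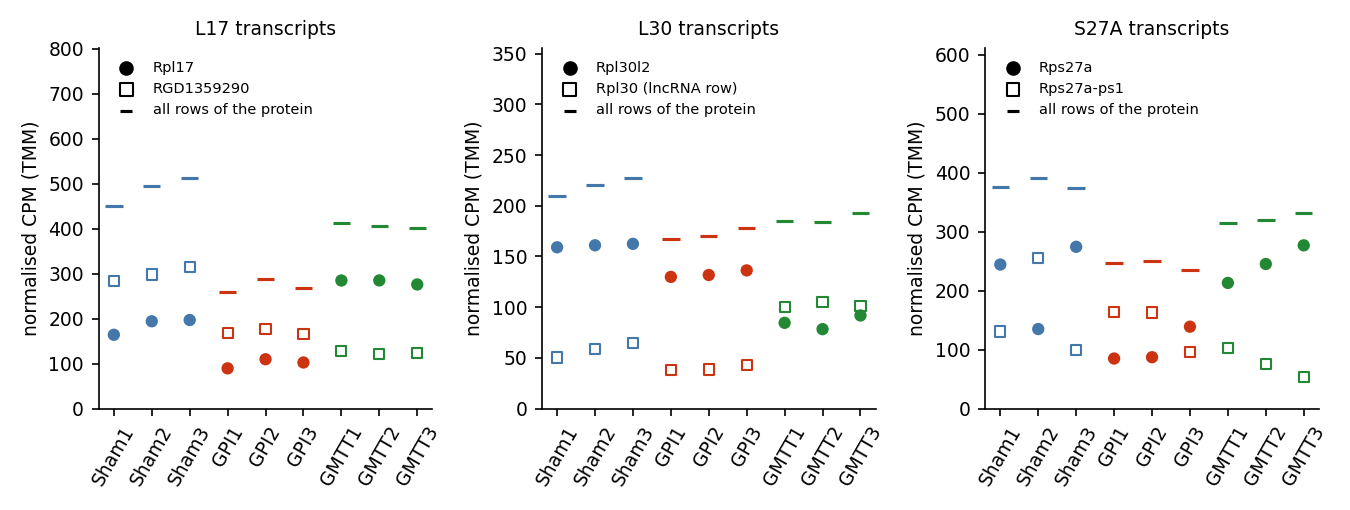
Normalised CPM of a member (filled circles), of another row that the deposited descriptions assign to the same protein (open squares) and of all rows of that protein (dashes), by library. Rpl17 and RGD1359290 change places in GMTT, as do Rpl30l2 and the Rpl30 row to a lesser degree, and Rps27a and Rps27a-ps1 mirror each other within groups, while the sums vary less.

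Several members hold few of the reads of their protein. Rpl9, Rpl35a, Rpl39, Rps20 and Rpl38 held 0.651%, 4.49%, 3.21%, 0.186% and 0.0835% of the counts of all rows described as theirs, the rest lying at rows named as pseudogenes or by locus. The Rpl9 value of -0.13, not called, therefore rests on 388 of 59616 counts, and the L9 sum changed by -0.53 (SE 0.04) in GPI. With all rows of a protein summed, 76 proteins had rows and 75 were tested, some on few counts, such as L36 with 111 and L7 with 662. In GPI against Sham 71 fell and 0 rose, with a median of -0.65. In GMTT against GPI 67 rose and 0 fell, and in GMTT against Sham 66 fell and 0 rose (edgeR's quasi-likelihood test). Paralogues were left out of the sums, and the choice was made after the values were seen. Without summing, 48.1% of all genes fell in GPI against Sham, 45.7% rose in GMTT against GPI and 28.3% fell in GMTT against Sham. Among the sums that of the S26 protein, which has no member row, fell most in GPI, from 7.15, 7.89 and 8.52 normalised CPM in Sham to 1.01, 1.43 and 0.672. It rests on only 891 counts over all libraries, 860 of them at LOC108352688, and may not stand for the S26 transcripts as a whole. In all, 40 members overlap another row of the table, 16 of them on the opposite strand, among them Rpl3 with Syngr1. The strand setting of the counting is not given, so such values are uncertain.

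Rpsa, Rack1 and Rpl36al, ribosomal protein genes whose symbols fall outside the rule, also fell in GPI against Sham. Rpsa, the laminin receptor protein of the small subunit, was at 819 ± 38.5, 527 ± 15.3 and 715 ± 18.2 normalised CPM in Sham, GPI and GMTT (SD, n = 3), and Rack1, a signalling scaffold on the small subunit, at 628 ± 41.0, 329.8 ± 13.7 and 508 ± 20.5. In GPI against Sham they changed by -0.64 and -0.93, and in GMTT against GPI by 0.44 and 0.62. Rpl36al changed by -0.86 in GPI. Fau, at 2.96 ± 1.73 normalised CPM in GPI, was not called.

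Other genes of translation did not all follow the ribosomal proteins, and directions for these lists are on the TMM scale. Of 38 ribosome assembly factors 25 fell and 6 rose in GPI against Sham, with a median of -0.34, where 48.1% of all genes fell and 40.1% rose. With library sizes alone 36 fell and 1 rose, with a median of -1.44 against -1.28 for all genes. Of all 15936 genes, 11210 fell and 3521 rose on that scale. Fbl, the methyltransferase of box C/D particles, fell from 79.3 ± 5.89 to 22.1 ± 0.485 normalised CPM, and Npm1, a nucleolar chaperone, from 514 ± 27.7 to 164 ± 5.81 (SD, n = 3), changes of -1.84 and -1.65. Of 12 genes of RNA polymerase I, which makes the large ribosomal RNAs, 8 fell and 2 rose, with a median of -0.81, among them Ubtf at -1.19 and Polr1e at -1.61. In GMTT against GPI 23 assembly factors and 8 polymerase I genes rose, and 8 and 1 fell, with Fbl at 1.71 and Npm1 at 1.47. Among all genes 45.7% rose and 40.2% fell in that comparison. Of 76 genes for mitochondrial ribosomal proteins, 75 were tested, of which 70 rose and 1 fell in GPI, with a median of 1.09. With library sizes alone that median was -0.00, with 34 rising and 30 falling, so that the direction of the mitochondrial list holds only relative to other genes.

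Of 31 initiation factors 11 were higher and 18 lower in GPI, with a median of -0.18 (3 higher and 27 lower with library sizes alone), close to all genes, of which 40.1% were higher and 48.1% lower with a median of -0.19. Within 2 families of near relatives the members moved in opposite directions. Pabpc1, the main cytoplasmic poly(A)-binding protein, fell from 1973 ± 32.3 to 183 ± 8.38 normalised CPM, a change of -3.43 (SE 0.05), and Pabpc4 rose from 429.6 ± 1.20 to 1069 ± 11.8, a change of 1.32 (SE 0.04). Eif4a1 and Eif4a2, the RNA helicases of initiation, changed by -1.63 (SE 0.05) and 1.48 (SE 0.05). In GMTT against GPI the 4 genes changed by 3.11, -1.38, 1.45 and -1.68. With library sizes alone Pabpc4 and Eif4a2 still differed in sign from their relatives in both comparisons.

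Of 8 elongation factors tested 4 rose and 2 fell in GPI, where 40.1% of all genes rose and 48.1% fell. With library sizes alone 1 rose and 6 fell, where 3521 of all 15936 genes rose and 11210 fell. Eef1a2, the form of elongation factor 1A used in adult muscle and neurons, was at 21.0 ± 1.64, 2052 ± 118 and 207 ± 15.8 normalised CPM in Sham, GPI and GMTT (SD, n = 3), changes of 6.61 in GPI against Sham, -3.31 in GMTT against GPI and 3.30 in GMTT against Sham. Its order over the groups was that of Rpl3l, with a larger range. Eef1a1, its widely expressed relative, had 0.446 ± 0.177 normalised CPM in Sham at the row of that symbol and gives no usable level. Of 16 regulators in the TOR pathway list 10 rose and 6 fell in GPI, with a median of 0.45 against -0.19 for all genes. With library sizes alone the medians were -0.64 and -1.28. The list mixes genes that promote TOR signalling with inhibitors, so its counts give no direction for the pathway. Ddit4, an inhibitor of TOR complex 1, rose by 1.99, and Myc, which drives transcription of ribosomal genes, changed by -1.92 in GPI and by 1.85 in GMTT against GPI.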

How the data were processed

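RNA was extracted with TRIzol, selected for poly(A) and sequenced as strand-specific paired-end libraries, per the labels' protocols. Per the submitters' processing notes, mRatBN7.2 was used as genome build. The sources used here do not give the aligner, counter, strand setting or treatment of reads matching several rows. The authors deposited raw counts per gene and FPKM, which equalled count over length over a constant per library (relative deviation 5.33e-15) that was proportional to the median-of-ratios size factor, not to depth. Counts were tested with edgeR 4.0.16 in R 4.3.3 (filterByExpr with a minimum count of 10, TMM, quasi-likelihood test, 9 libraries in 1 fit, Benjamini-Hochberg adjustment over 15936 genes), and the scripts were tested on simulated data. Alternatives used DESeq2 1.42.0 and limma 3.58.1. Blank-symbol rows numbered 563 and stayed in the fit. Replicate numbers were not used to pair the libraries in the main fit, and whether they mark pairs was not settled.

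The members, lists and tests were chosen with earlier results of these data known. Named genes were the paralogue pairs, the stalk, the ribosomal proteins outside the rule, the 4 highest and 4 lowest called, non-overlapping members per comparison, by family-scaled change and by Sham FPKM, and up to 4 genes per other list by smallest p. Rps19, Rps3, Rps6, Rpl5, Rpl11, Rpl24, Rps25, Rpl37, Eef1a1, Eif4a1, Ddit4 and the copies at other rows were named after their values were seen where the rule did not name them. Summing the rows of a protein was also chosen after the values were seen. Rpl7 and Rpl26l1 were not matched by symbol. A gene that the rule names is not reported here.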

Additional observations from a re-analysis of the deposited data

How the results depend on the processing

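Scaling to the family's own summed counts centres the members by construction and gave 27 higher and 25 lower in GPI against Sham, 25 and 26 in GMTT against GPI, and 6 and 6 in GMTT against Sham. Requiring a 2-fold minimum left 7 lower in GPI against Sham, 5 higher and 1 lower in GMTT against GPI, and 1 higher and 0 lower in GMTT against Sham. With rows of a protein summed (chosen after seeing the data), the higher counts in GPI and GMTT against Sham and the lower count in GMTT against GPI were 0. The paralogues Rpl3l and Rpl39l were not among the sums, while Rpl17 and Rpl30l2 changed sign when the rows of their copies were added. With no low-count filter 2 members were higher in GPI against Sham, with library sizes only 1 was lower in GMTT against GPI, and with limma on log2(FPKM + 1) and no filter 36 were lower in GMTT against Sham; the cause was not tested. Leaving out each library in turn gave 1 higher and 65 to 70 lower in GPI against Sham, 59 to 63 higher and 2 lower in GMTT against GPI, and 3 to 5 higher (5 without Sham replicate 3) and 48 to 60 lower in GMTT against Sham.

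The share of counts in members was 3.63%, 1.59% and 3.20% in Sham, GPI and GMTT without the tissue marker lists in the total, 1.21% and 2.85% in GPI and GMTT without mitochondrially encoded genes, and 3.60%, 1.05% and 3.09% over all rows described as cytosolic ribosomal proteins. Leaving out 1 library gave 3.02% to 3.16%, 0.876% to 0.912% and 2.64% to 2.71%. The log2 ratio of Rpl3l to Rpl3 ranged from 6.75 to 6.82, from -5.35 to -5.28 and from 1.44 to 1.51 in the 3 comparisons.

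With a replicate block the counts were 1 and 71, 62 and 2, and 3 and 55. Of 9 same-numbered pairs of libraries 1 had a deviation correlation above 0.1 (range -0.288 to 0.105), and the differently numbered Sham2 and GMTT3 had 0.271. With 3 libraries per group this measure cannot settle whether the numbers mark pairs.

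Of the named genes, these changed sign. Scaled to the family, where 0 is the family's own course, values in GPI against Sham were 0.20 for Rpl22, 0.23 for Rpl22l1, 0.36 for Rps27l, 0.080 for Rps4x, 0.42 for Rpl30l2, 0.45 for Rpl23, 0.51 for Rps29, 0.57 for Rpl9, 0.58 for Rpl37l1, 0.36 for Rpl37, 0.32 for Rps25, 0.27 for Rplp0, 0.22 for Rplp1, 0.25 for Rplp2, 0.013 for Rpl5, 0.10 for Rpl11 and 0.060 for Rpsa. In GMTT against GPI they were -0.12 for Rps4x, -0.17 for Rplp0, -0.15 for Rpl5, -0.15 for Rpl11 and -0.040 for Rpsa, and in GMTT against Sham 0.10 for Rplp0. With library sizes only, GMTT against GPI gave 0.46 for Rpl30l2 and 0.65 for RGD1359290. With rows summed, Rpl30l2 was at 0.12 in GMTT against GPI and Rpl17 at -0.26 in GMTT against Sham. The uncalled Rpl9 value in GPI against Sham ranged from -0.35 to 0.077 when 1 library was left out, and was 0.012 without Sham replicate 1 and 0.077 without GPI replicate 1. Rows with few counts, such as Rpl39l and Rpl9, limit what this depth can show.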
